A study of Mus musculus with 15 samples.

Results

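The inner membrane of the mitochondrion carries 5 protein complexes that make ATP from NADH, succinate and oxygen, and most of their subunits are encoded in the nucleus. The 81 genes described here are nuclear subunit genes of these complexes that the liver libraries detected. They were chosen by gene name (names starting with Ndufa, Ndufb, Ndufc, Ndufs, Ndufv, Uqcr, Cox4 to Cox8 or Atp5, and Sdha to Sdhd, without the Ndufaf assembly factors) and by a minimum of 10 counts in at least 3 libraries, which 81 of 87 matching genes reached, out of 21702 genes in the table. By name, 39 belong to complex I (NADH dehydrogenase), 4 to complex II (succinate dehydrogenase), 8 to complex III (cytochrome bc1), 13 to complex IV (cytochrome c oxidase) and 17 to complex V (ATP synthase). All 81 passed the filter on low counts and were tested. The set is not complete: cytochrome c1, a nuclear-encoded subunit of complex III, does not match these names and was read in a list with the electron carriers.

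RNA was sequenced from 15 liver samples of female wild-type mice, labelled C57BL/6 and given in the study's methods as C57BL/6N, in 5 groups of 3. All 5 groups received 100 µl of an AAV8 virus at 5.0e+12 genome copies per ml by tail vein, a hepatotropic vector whose insert is driven by the liver-specific TBG promoter. The groups were non-pregnant mice with the empty virus (NP AAV8-null), mice at 8 or 16 days post coitum with the empty virus (8 dpc and 16 dpc AAV8-null), and mice at the same stages with virus carrying mouse p21, an inhibitor of the cell cycle encoded by Cdkn1a (8 dpc and 16 dpc AAV8-p21). No group of non-pregnant mice with the p21 virus and no group without virus was among them, and the age of single animals is not in the labels. The labels do not say which libraries come from separate mice, so the p-values measure the spread between these libraries. The 3 libraries of the 16 dpc AAV8-p21 group carry other numbers in the table than in the labels and are called a, b and c.

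As background, complex I takes electrons from NADH and complex II takes them from succinate, complex III passes them to cytochrome c, complex IV hands them to oxygen, and complexes I, III and IV pump the protons that drive ATP synthase. Hepatocytes are rich in mitochondria and spend much ATP on gluconeogenesis and urea synthesis. Several complex IV subunits exist as a widely expressed and a tissue-restricted isoform, and the promoters of many nuclear subunit genes are known to carry sites for NRF1, ETS-family factors, YY1 and ERR alpha, which are thought to coordinate them.

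The restricted isoforms Cox7a1 and Cox6b2 had the largest differences between groups, so the sequence before the start is shown for them and their widely expressed counterparts, together with 3 abundant subunits whose printed stretch held one of the searched motifs. Sequences are from RefSeq, assembly GRCm38.p6, on the strand of the gene, 5′ to 3′, cut to the bases before the start that lie in no annotated exon, and capitals mark a motif on either strand. Cox7a1, the striated muscle isoform, lies at chr7:30183921-30184143 (plus strand), its widely expressed counterpart Cox7a2 at chr9:79759879-79760103 (minus), Cox6b2, the testis isoform, at chr7:4753095-4753225 (minus), and its counterpart Cox6b1 at chr7:30626152-30626364 (minus). Cox6a1 lies at chr5:115348982-115349129 (minus), Uqcr11 at chr10:80406831-80407071 (minus) and Atp5g3 at chr2:73911327-73911576 (minus).
Cox7a1: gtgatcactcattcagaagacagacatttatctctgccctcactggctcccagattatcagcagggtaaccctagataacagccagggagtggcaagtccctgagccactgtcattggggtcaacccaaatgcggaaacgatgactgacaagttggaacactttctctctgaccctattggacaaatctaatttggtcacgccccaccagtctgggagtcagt
Cox7a2: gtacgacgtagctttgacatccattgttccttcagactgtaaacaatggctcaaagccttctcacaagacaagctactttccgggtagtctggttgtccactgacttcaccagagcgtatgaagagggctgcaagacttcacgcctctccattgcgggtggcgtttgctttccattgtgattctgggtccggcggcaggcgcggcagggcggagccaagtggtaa
Cox6b2: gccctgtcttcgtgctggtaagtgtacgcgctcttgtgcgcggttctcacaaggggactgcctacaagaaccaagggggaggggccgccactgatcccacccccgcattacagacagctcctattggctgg
Cox6b1: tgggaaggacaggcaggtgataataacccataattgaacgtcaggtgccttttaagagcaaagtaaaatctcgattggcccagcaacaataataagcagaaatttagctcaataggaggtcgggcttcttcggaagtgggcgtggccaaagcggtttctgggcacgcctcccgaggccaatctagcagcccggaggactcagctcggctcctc
Cox6a1: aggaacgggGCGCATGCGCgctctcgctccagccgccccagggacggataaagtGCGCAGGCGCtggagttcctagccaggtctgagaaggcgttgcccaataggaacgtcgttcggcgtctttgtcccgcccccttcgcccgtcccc
Uqcr11: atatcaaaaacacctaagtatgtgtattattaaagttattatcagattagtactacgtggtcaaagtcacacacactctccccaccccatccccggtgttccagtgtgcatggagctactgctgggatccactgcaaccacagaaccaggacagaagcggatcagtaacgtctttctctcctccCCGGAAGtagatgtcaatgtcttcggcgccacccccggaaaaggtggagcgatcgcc
Atp5g3: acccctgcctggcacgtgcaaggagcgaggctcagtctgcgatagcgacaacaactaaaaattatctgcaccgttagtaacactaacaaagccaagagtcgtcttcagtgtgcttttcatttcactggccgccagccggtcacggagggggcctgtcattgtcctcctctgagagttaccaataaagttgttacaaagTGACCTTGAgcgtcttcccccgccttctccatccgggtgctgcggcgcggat

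None of the 5 motifs searched fell into the printed stretch of Cox7a1, Cox7a2, Cox6b2 or Cox6b1, while the Cox6a1 stretch held the NRF1 letters 2 times, Uqcr11 an ETS match and Atp5g3 an ERR match. This contrast was fixed in advance, since Cox6a1, Uqcr11 and Atp5g3 were printed because their stretches held a motif. It also holds for the printed stretches only: in the rest of their windows Cox6b1 and Cox6a1 held the ETS letters and Atp5g3 the NRF1 letters. The printed stretch of Cox7a1 had 3 CG dinucleotides in 223 bases and that of Cox7a2 had 12 in 225. Over the whole windows of 250 bases before and 50 after the start, which were at hand for 67 of the 81 subunit genes and 27025 genes in all, the palindromic NRF1 consensus was found in 25.4% of the subunit genes and 5.19% of all genes. The ETS motif CCGGAAG was found in 25.4% against 9.93%, the YY1 motif AAGATGGC in 14.9% against 3.19%, the ERR motif TCAAGGTCA in 2.99% against 0.466%, and the cyclic AMP response motif TGACGTCA in 5.97% against 2.03%. Both strands were searched and no overlap between different motifs was taken out. By complex, the NRF1 letters stood in 7 of 33 windows of complex I, 2 of 3 of complex II, 1 of 5 of complex III, 1 of 11 of complex IV and 6 of 15 of complex V. Base composition differed as well: the 250 bases before the start had a median GC content of 56.4% and 14 CG dinucleotides in the windows of subunits, against 52.4% and 6 in all windows, and its part in the motif shares was not tested. Such matches describe the letters only.

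The libraries held 12280709 to 17615185 counts. Cdkn1a, the gene carried by the virus, stood at 347 to 1664 CPM (counts relative to library size, scaled by edgeR's TMM factors) in the 6 AAV8-p21 libraries and at 3.29 to 127 CPM in the 9 AAV8-null libraries, with no overlap. In the 16 dpc AAV8-null group it lay at 59.8 to 127 CPM, a log2 fold change of 2.58 against NP (SE 0.68, edgeR adjusted p = 0.0358). All 8 hepatocyte markers checked were detected, but they did not move together: from NP to 16 dpc AAV8-null Alb (log2 fold change 2.01) and Apoa1 (1.67) were called higher, while Ttr (-1.41), Cyp2e1 (-1.14) and Ass1 (-1.07) were called lower. Alb alone took 20.5% to 27.8% of the counts at 16 dpc against 7.90% to 12.9% in the other groups.

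The 81 subunit genes together took 1.31% ± 0.152 of all counts (SD, n = 3) in NP AAV8-null and 1.16% ± 0.037 in 8 dpc AAV8-null. Their share was 0.716% ± 0.0787 in 16 dpc AAV8-null, 1.26% ± 0.123 in 8 dpc AAV8-p21 and 0.811% ± 0.0513 in 16 dpc AAV8-p21. The 6 libraries of 16 dpc lay between 0.626% and 0.870%, all under the 1.13% to 1.48% of the other 9. A lower share of all counts and a lower level of each gene are different quantities here, since Alb and other abundant transcripts took more of the 16 dpc libraries: scaled by library totals, the median log2 fold change of the subunits from NP to 16 dpc AAV8-null was -0.91 and that of all genes tested -0.70. On that scale 75 of 81 subunits were called lower from NP to 16 dpc and 66 from 8 to 16 dpc with the empty virus, and 56 from 8 to 16 dpc with p21. Of all genes, 50.5%, 53.5% and 35.5% were called in these comparisons, counted in either direction and not for lower alone. With TMM scaling the medians were -0.23 and -0.03. The levels below are on the TMM scale. In whole tissue, fewer cells of a type and less RNA per cell cannot be told apart.

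Levels within the complexes spanned a wide range. Divided by exonic length, the subunit with the highest mean over the 15 libraries was Cox6a1, a small nuclear subunit of complex IV, at 261 CPM per kb, followed by Atp5a1 and Atp5b, the alpha and beta subunits of the catalytic head of ATP synthase, at 248 and 235 CPM per kb. Uqcr11, a small subunit of complex III, led its complex with 190 CPM per kb. Ndufa4, which was first assigned to complex I and is now placed with complex IV, led the Nduf genes with 168, and Sdhd, a membrane anchor of complex II, led the Sdh genes with 149 CPM per kb. Among the 78 subunits with at least 10 counts in every library, the median stood at 58.4 CPM per kb. It was 46.2 in the 38 such genes of complex I, 84.3 in the 4 of complex II and 122 in the 8 of complex III. In the 11 of complex IV it was 117, and in the 17 of complex V 60.4. Levels per length use the union of all annotated exons, which sum to 6883 bases for Ndufab1 (7.5 CPM per kb) and 6443 bases for Atp5l (7.3 CPM per kb). Which of these exons the liver uses was not measured.

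**Figure D1:**
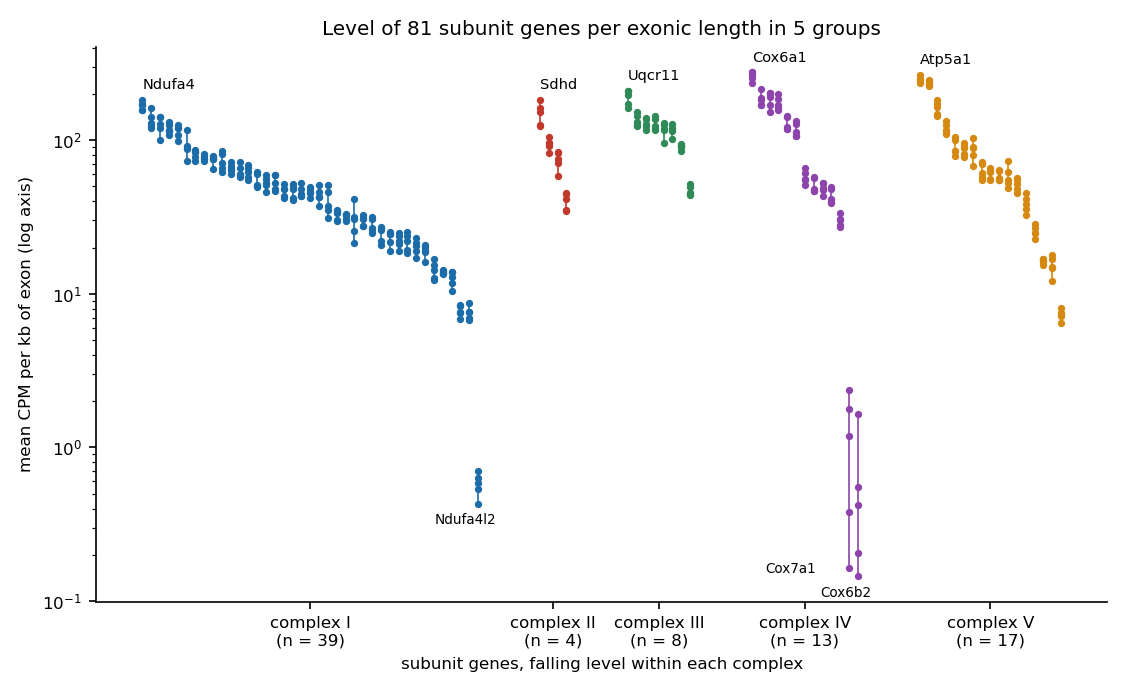
Mean CPM per kb of exon (log axis) of the 81 subunit genes in the 5 groups, 1 column of 5 points per gene, ordered by level within each complex; the line joins the lowest and highest group mean. The group means of 78 genes are at 6.49 CPM per kb or more, and those of Ndufa4l2, Cox7a1 and Cox6b2 are at 2.37 or less.

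A gap separated 3 restricted isoforms from the other subunits. Ndufa4l2, a paralogue of Ndufa4 known to respond to hypoxia, had 145 counts over all 15 libraries, Cox7a1 had 152 and Cox6b2 had 161, while the next subunit, Ndufs5, had 4688. The count rule admitted them through 8, 6 and 5 libraries with at least 10 counts. For Cox7a1 all 6 were NP or 8 dpc libraries and none was of 16 dpc, and for Cox6b2 all 5 were NP or 8 dpc AAV8-null libraries and none carried p21. Both were thus chosen through the groups in which they were high, so their differences between these groups are given as a description and support nothing. Of the genes just outside the rule, Cox5b-ps, a pseudogene by name, had 43 counts, Cox4i2 (lung) had 13, Cox8b (muscle) 12 and Cox6a2 (muscle) 9, and the testis isoforms Cox7b2 and Cox8c had 0. A count of 0 in a library allows up to 3 counts. Nearly all of the measured level came from the widely expressed isoforms. Of the Cox7a1 and Cox7a2 level per length, Cox7a2 made up 97.8% to 99.9% in every library, and Cox6b1 made up 98.0% to 99.9% of the Cox6b pair. Ndufa4 made up 99.4% to 99.9% of its pair with Ndufa4l2.

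Cox7a1 (chr7:30184144-30186078, plus strand, GRCm38) was the only subunit gene that edgeR called in any comparison, with lower counts at 16 dpc, the stage that had no part in admitting it. Its counts were 16, 17 and 10 in NP AAV8-null, 9, 5 and 21 in 8 dpc AAV8-null, and 1, 1 and 1 in 16 dpc AAV8-null. They were 24, 9 and 30 in 8 dpc AAV8-p21 and 2, 2 and 4 in 16 dpc AAV8-p21. Every library of 16 dpc, with either virus, lay below every library of the other groups, though narrowly: the highest at 16 dpc was at 0.291 CPM and the lowest elsewhere at 0.298 CPM. With the empty virus its log2 fold change was -3.33 from NP to 16 dpc (SE 0.75) and -2.78 from 8 to 16 dpc (SE 0.77). With the p21 virus, in a separate set of libraries, it was -2.57 from 8 to 16 dpc (SE 0.62). Such folds of a gene at 1 count depend on the prior count. The summed counts gave an NP to 16 dpc ratio of 10.9 (95% interval 3.50 to 55.1) and an 8 to 16 dpc ratio of 7.56 (2.38 to 38.4) with the empty virus, and of 5.93 (2.83 to 14.3) with p21, where the exact intervals cover counting error only and not the choice of the gene. The calls were not stable: with the empty virus the one from 8 to 16 dpc was lost when any of its 6 libraries was left out, and that from NP to 16 dpc was lost without NP AAV8-null 2, 16 dpc AAV8-null 2 or 16 dpc AAV8-null 3. With p21, of the 6 fits that left out 1 of its libraries, only the one without 8 dpc AAV8-p21 2 kept the call. In the same libraries the counterpart Cox7a2 stood at 87.1 to 118 CPM in the 6 libraries of 16 dpc and at 89.2 to 169 CPM in the other 9, and its log2 fold change from NP to 16 dpc was -0.26 (SE 0.22, adjusted p = 0.543).

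Cox7a1 is typical of heart, skeletal muscle and brown fat, and markers of skeletal muscle and brown fat were read beside it. No separate list for heart was read. Of 6 skeletal muscle markers (Acta1, Ckm, Myh1, Myh4, Tnnt3 and Mb) 4 were at 0 in all 15 libraries, and their summed level never exceeded 0.0852 CPM. Ucp1, the defining gene of brown fat, and Dio2, Adipoq and Plin1 had at most 3 counts in any library. The 6 brown fat markers, with Cidea and Elovl3 added, summed to 1.89 to 4.89 CPM in NP AAV8-null, 1.144 to 3.03 in 8 dpc AAV8-null, 0.178 to 2.92 in 16 dpc AAV8-null, 2.32 to 4.39 in 8 dpc AAV8-p21 and 0.509 to 3.42 in 16 dpc AAV8-p21. Elovl3 was the only one of them tested and was called in no comparison. With the empty virus its log2 fold change was -1.45 from NP to 16 dpc (SE 0.67, edgeR adjusted p = 0.226), -0.85 from NP to 8 dpc (SE 0.62, adjusted p = 0.984) and -0.60 from 8 to 16 dpc (SE 0.67, adjusted p = 0.653). With p21 it was -1.59 from 8 to 16 dpc (SE 0.67, adjusted p = 0.24). Their part in the change of Cox7a1 was not tested.

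Cox6b2 (chr7:4751792-4753094, minus strand) differed between groups in another way. Its counts were 11, 12 and 5 in NP AAV8-null, 25, 12 and 63 in 8 dpc AAV8-null, and 5, 3 and 8 in 16 dpc AAV8-null, against 2, 3 and 3 in 8 dpc AAV8-p21 and 2, 2 and 5 in 16 dpc AAV8-p21. At 8 dpc the groups did not overlap, and the library with 63 counts stood apart from its group. The log2 fold change of 8 dpc AAV8-p21 against 8 dpc AAV8-null was -3.48 (SE 0.64). It was not called by edgeR and was called by the DESeq2 Wald test and by limma voom with sample weights, and none of these outcomes is support for a difference, since no AAV8-p21 library had a part in admitting the gene. The summed counts gave an AAV8-null to AAV8-p21 ratio of 12.2 (95% interval 5.97 to 29.1), an interval that covers counting error only and not the choice of the gene. From NP to 8 dpc with the empty virus the log2 fold change was 1.55 (SE 0.54) and from 8 to 16 dpc it was -1.95 (SE 0.58), and edgeR called neither. Its counterpart Cox6b1 was at 104 to 139 CPM in 8 dpc AAV8-null and at 113, 123 and 197 CPM in 8 dpc AAV8-p21, with overlap. The third restricted isoform, Ndufa4l2, stood at 0.167 to 1.04 CPM with overlap between all groups, and passed the test in none of the comparisons.

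**Figure D2:**
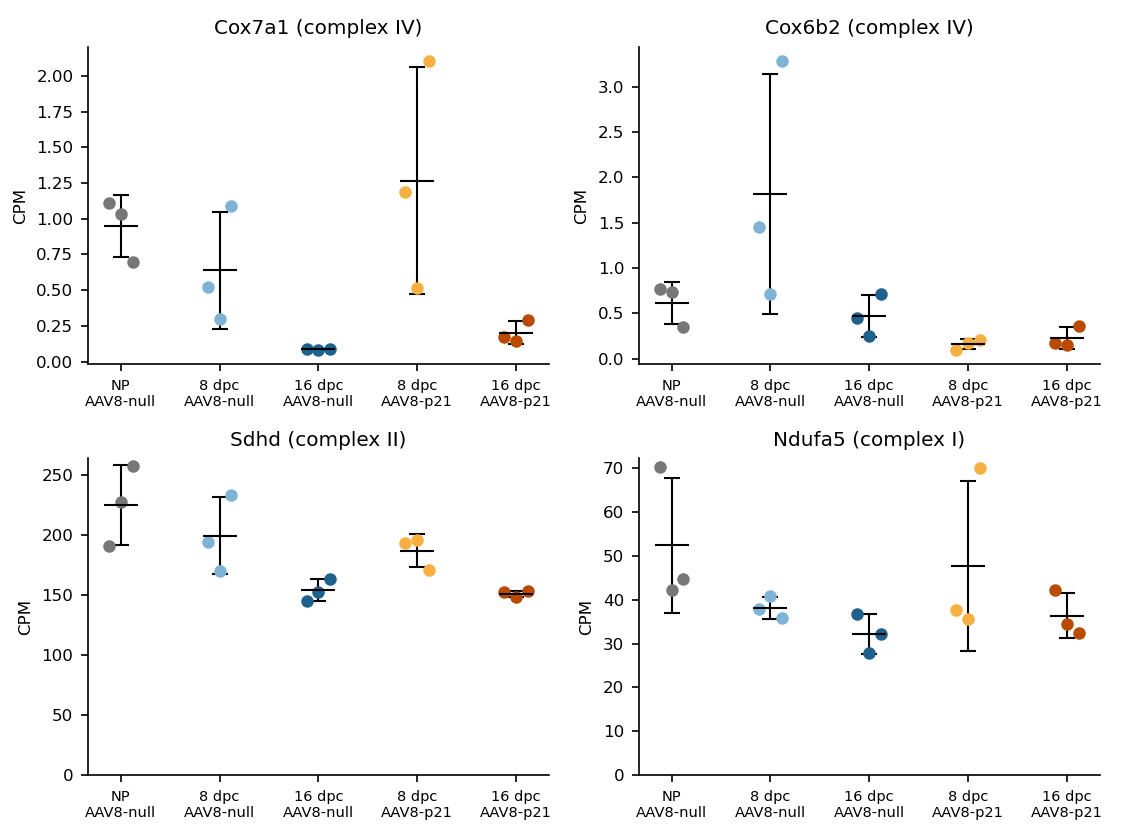
CPM of Cox7a1, Cox6b2, Sdhd and Ndufa5 in each library (points) with the mean and SD of each group of 3 (bars); each panel has its own axis. Cox7a1 is lowest in the 6 libraries of 16 dpc, Cox6b2 is highest in 8 dpc AAV8-null, Sdhd is below 164 CPM in the 6 libraries of 16 dpc, and Ndufa5 reaches 70 CPM in 1 NP and 1 8 dpc AAV8-p21 library.

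None of the other 78 abundant subunit genes was called by edgeR in any comparison with TMM scaling and all 15 libraries, and their log2 fold changes were small. From NP to 16 dpc AAV8-null, 76 of 81 subunit genes had a negative and 5 a positive log2 fold change, with a median of -0.23, a middle range of -0.34 to -0.14 and a median of -0.03 over all 12172 genes tested. This one-sided split depended on the libraries and the processing. Without NP AAV8-null 1 and 8 dpc AAV8-p21 3 together it was 34 higher and 47 lower (median -0.03). Limma voom, which gives libraries weights, also gave 34 and 47 (median -0.03). With a trend by gene length, described below, taken out of each library it was 18 higher and 63 lower (median -0.15). By edgeR without these changes, Cox7a1 was the only subunit called, against 6.52% of all genes tested in either direction and 2.82% for lower. An unadjusted p under 0.05 was reached by 6 subunits, Cox7a1 included, against 21.2% of all genes. In 6 of 81 subunits, all lower, the 2 groups did not overlap, against 12.5% of all genes for lower and 12.1% for higher. The 95% interval of the log2 fold change lay inside -1 to 1 for 71 of 81 subunits, and the median interval reached 0.51 to either side of its estimate.

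Complex II was the lowest complex in that comparison, with a median of -0.45 over its 4 genes. Sdhd, a membrane anchor (chr9:50596357-50603812, minus strand), was at 191, 227 and 257 CPM in NP AAV8-null, at 194, 170 and 234 in 8 dpc AAV8-null and at 145, 152 and 163 in 16 dpc AAV8-null. It was at 194, 196 and 171 CPM in 8 dpc AAV8-p21 and at 152, 148 and 153 in 16 dpc AAV8-p21. The 6 libraries of 16 dpc lay below the other 9 without overlap, narrowly in 1 case (163 and 170 CPM). Its log2 fold change from NP to 16 dpc AAV8-null was -0.55 (SE 0.17, 95% interval -0.91 to -0.19) with an edgeR adjusted p of 0.0684, and 0.0109 with the DESeq2 Wald test. Sdhb, the iron-sulfur subunit, was at -0.52 (SE 0.24, adjusted p = 0.237), Sdhc, the other anchor, at -0.37 (SE 0.18, adjusted p = 0.258) and Sdha, the flavoprotein, at -0.22 (SE 0.18, adjusted p = 0.546). All 4 Sdh genes were also below 0 from 8 to 16 dpc with either virus, with medians of -0.25 and -0.25, and none was called. With p21 this held for 3 of 4 without NP AAV8-null 1 and 8 dpc AAV8-p21 3 (median -0.27) and with limma voom (median -0.23).

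In complex I, 36 of 39 genes were below 0 from NP to 16 dpc AAV8-null (median -0.20), but without the 2 libraries just named 21 were higher and 18 lower (median 0.0077), and with limma voom 20 were higher and 19 lower. The lowest was Ndufa5, an accessory subunit of the matrix arm, at 70.2, 42.3 and 44.8 CPM in NP and 36.7, 27.7 and 32.1 CPM at 16 dpc (log2 fold change -0.70, SE 0.26, adjusted p = 0.133). The highest was Ndufa1, an X-linked subunit of the membrane arm, at 67.9, 37.8 and 44.2 CPM in NP and 75.1, 49.0 and 54.4 CPM at 16 dpc, with overlap (0.25, SE 0.26, adjusted p = 0.631). The 7 core genes that bind the flavin and the iron-sulfur clusters had a median of -0.14. Ndufb9, an accessory subunit, was at -0.43 (SE 0.18, adjusted p = 0.178). Ndufs7, which holds the iron-sulfur cluster next to the quinone, varied most among the abundant subunits, by 3.87-fold over the 15 libraries: it was at 25.2 and 22.4 CPM in the 16 dpc AAV8-p21 libraries a and b but at 63.0 in c, so no mean of that group describes it.

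In complex III the median was -0.18, or 0.03 without the 2 libraries (5 higher, 3 lower), and the extremes were Uqcr10, at -0.31, and Uqcrq, at 0.06, which overlapped between groups. The Rieske iron-sulfur protein Uqcrfs1 was at 220, 169 and 184 CPM in NP and 195, 169 and 193 CPM at 16 dpc. In complex IV all 13 genes were below 0 (median -0.30), from Cox7a1 at -3.33 to Cox6a1 at -0.07, and without the 2 libraries 11 were (median -0.08). In complex V the median was -0.26, or -0.05 without them (6 higher, 11 lower). The lowest was Atp5o, the stalk subunit OSCP, at 187, 115 and 129 CPM in NP and 96.5, 94.5 and 99.7 CPM at 16 dpc (-0.57, SE 0.22, adjusted p = 0.148), and the highest was Atp5g3, at 0.15. In the catalytic head, Atp5a1 varied by 1.34-fold and Atp5b by 1.45-fold over all 15 libraries.

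The c-ring of ATP synthase is built from 1 mature protein that 3 genes encode. Atp5g3 supplied 80.9% to 86.9% of their summed level per length in every library, with 82.9% ± 0.137 in NP AAV8-null and 86.2% ± 0.67 in 16 dpc AAV8-null (SD, n = 3). Atp5g1 supplied 8.42% ± 1.23 in NP and 5.76% ± 0.549 at 16 dpc AAV8-null, and 9.73% ± 0.461 in 8 dpc and 7.30% ± 0.951 in 16 dpc AAV8-p21. Within either virus the shares of Atp5g3 at 8 and 16 dpc did not overlap, being 80.9% to 85.2% and 85.6% to 86.9% with the empty virus and 81.2% to 81.7% and 83.5% to 86.0% with p21. The single genes did not pass the test (Atp5g3 8 to 16 dpc AAV8-null, log2 fold change 0.35, SE 0.18, adjusted p = 0.268).

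**Figure D3:**
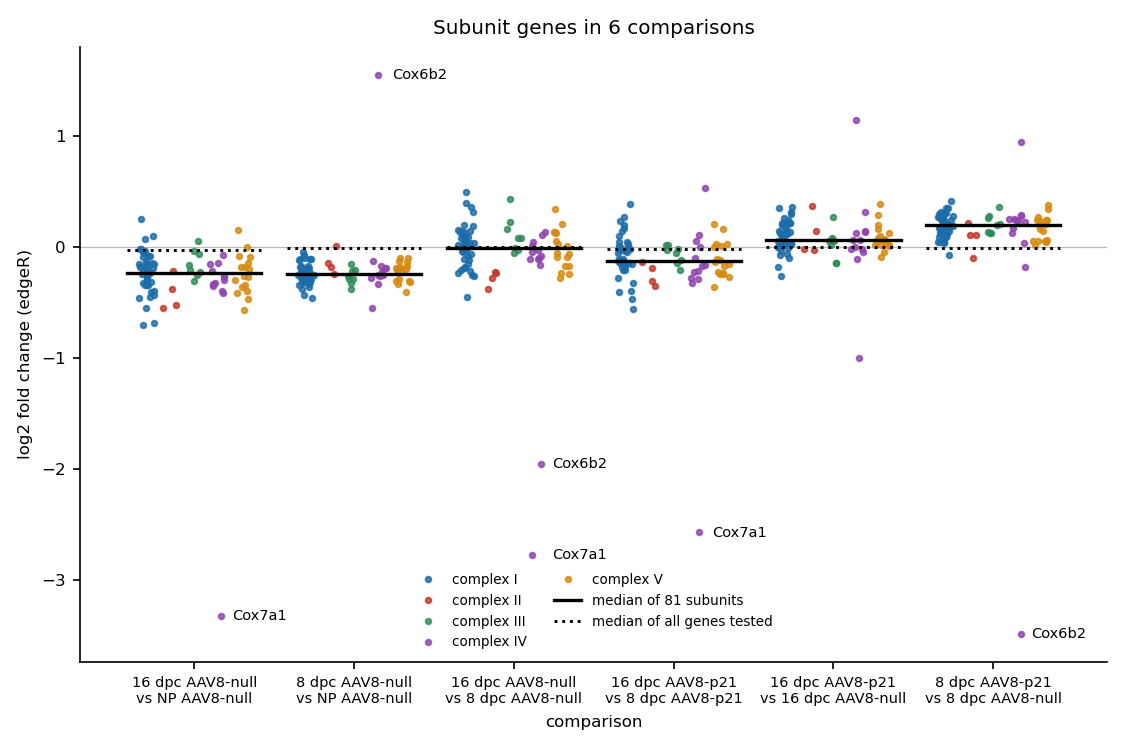
Log2 fold changes (edgeR, TMM) of the 81 subunit genes in 6 comparisons, 1 point per gene, coloured by complex; solid bars are the median of the subunits and dotted bars that of all genes tested. The medians run from -0.24 to 0.20, and the points beyond -1 or 1 belong to Cox7a1 and Cox6b2.

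At 8 dpc with the empty virus, 79 of 81 subunit genes were below NP (median -0.24, all genes -0.01), but 43 without NP AAV8-null 1 and 8 dpc AAV8-p21 3 and 36 with limma voom. With the trend by gene length taken out of each library, 77 were below NP (median -0.17). None was called by edgeR, DESeq2 or limma voom, no subunit but Cox6b2 had an unadjusted p under 0.05, against 6.6% of all genes, and edgeR called 0% of all genes tested there. Cox6b2 left aside, the smallest p values were those of Ndufs4, an accessory subunit of the matrix arm (log2 fold change -0.38, SE 0.18, adjusted p = 0.806), and Atp5o (-0.40, SE 0.22, adjusted p = 0.862). The groups did not overlap for 13 subunits, all lower, against 5.52% of all genes for lower and 4.69% for higher. From 8 to 16 dpc with the empty virus the subunits lay evenly around 0, with 40 higher and 41 lower (median -0.01), and Cox7a1 was the only 1 called against 6.87% of all genes, or 3.71% for lower. An unadjusted p under 0.05 was reached by 3 subunits (Sdhd, and Cox7a1 and Cox6b2, which the count rule chose), against 22.7% of all genes, and the groups did not overlap for 6 subunits that were higher and 5 that were lower, against 12.5% and 12.9% of all genes. With p21 the same step gave 24 higher and 57 lower (median -0.12), a split that turned with limma voom to 51 higher and 30 lower, with Cox7a1 called against 3.32% of all genes, or 1.23% for lower. No other subunit had an unadjusted p under 0.05, against 16.4% of all genes, and 1 subunit was higher and 4 lower without overlap, against 11.5% and 11.4%. The DESeq2 Wald test called 2 subunits (Sdhd and Cox7a1) from NP to 16 dpc against 7.45% of all genes, 0 from NP to 8 dpc against 0.386%, 0 from 8 to 16 dpc with the empty virus against 8.48% and 1 (Cox7a1) with p21 against 4.88%. Limma voom with sample weights called 2, 0, 0 and 3 subunits in the same order, against 13.2%, 15.2%, 14% and 14.9% of all genes, and the 3 were Ndufs7, Ndufa13 and Cox7a1. The comparison with p21 shares no library with those of the empty virus, whereas the 3 comparisons with the empty virus share libraries with each other.

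The p21 virus changed no subunit gene by the edgeR test. At 16 dpc, 63 of 81 were higher than with the empty virus and 18 lower (median 0.07), with 0 called, 0 with an unadjusted p under 0.05, and 0 by DESeq2 or limma voom; edgeR called 0.0739% of all genes, and 9.77% had an unadjusted p under 0.05. The groups did not overlap for 3 subunits that were higher and 1 that was lower, against 6.65% and 7.02% of all genes. The smallest p was that of Atp5k, the e subunit of ATP synthase, at 51.3, 34.0 and 39.8 CPM with the empty virus and 64.0, 54.7 and 45.6 CPM with p21, with overlap (log2 fold change 0.39, 95% interval -0.12 to 0.91, adjusted p = 0.602). Sdhb followed with 0.37 (SE 0.24, adjusted p = 0.642) and Ndufs5, an accessory subunit of complex I, with 0.36 (SE 0.24, adjusted p = 0.651). At 8 dpc, 77 were higher and 4 lower (median 0.20), or 40 and 41 with limma voom, with 0 called by edgeR against 0.0246% of all genes. Cox6b2 left aside, no subunit had an unadjusted p under 0.05, against 5.18% of all genes. Only 1 subunit was higher and 1 lower without overlap, against 5.52% and 4.49% of all genes. The interval lay inside -1 to 1 for 76 of 81 subunits at 16 dpc and for 74 at 8 dpc. Whether the p21 difference was itself different between the stages was tested as an interaction, which called 0 of 81 subunits by any of the 3 tools and 0% of all genes. Cox6b2 left aside, no subunit had an unadjusted p under 0.05 there, against 3.09% of all genes. Of all genes, DESeq2 called 0.834% and limma voom 0.961% for p21 at 16 dpc, and 0.174% and 0.863% for p21 at 8 dpc. A p that misses the threshold does not show that the groups were alike.

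The subunits deviated together most in 2 libraries, and to a smaller extent in others. Over the 78 subunits with at least 10 counts in every library, the median level relative to each gene's own mean over the 15 libraries was 1.43-fold in NP AAV8-null 1 and 1.403-fold in 8 dpc AAV8-p21 3, and 0.84-fold to 1.138-fold in the other 13. In these 2 libraries 73 and 72 of 78 subunits were above their own mean, and 44 and 22 had their highest value of all 15. Elsewhere 70 of 78 were above their mean in 16 dpc AAV8-p21 a, but only 6 in 8 dpc AAV8-null 3 and 11 in 16 dpc AAV8-null 2, where 28 had their lowest value. The median correlation of a subunit with the median of the other subunits was 0.89 over 15 libraries and 0.72 over the 13 without these 2, as a description of genes that share their libraries and the scaling. The summed level of complex IV was 2083 CPM in NP AAV8-null 1 against 1288 and 1377 in the other NP libraries, and 2066 CPM in 8 dpc AAV8-p21 3 against 1211 and 1331 in the other libraries of that group. Without both libraries the median log2 fold change was -0.03 from NP to 16 dpc (34 higher, 47 lower) and -0.02 from NP to 8 dpc (38 higher, 43 lower) with the empty virus. It was -0.02 for p21 at 8 dpc (29 higher, 52 lower), and 0.10 instead of -0.12 from 8 to 16 dpc with p21 (59 higher, 22 lower). The 4 Sdh genes stayed below 0 from NP to 16 dpc without them, with a median of -0.35, and Sdhd then passed the test (-0.66, SE 0.16, adjusted p = 0.0321), and Cox7a1, at -3.21, was also called, which makes 2 of 81 subunits beside 7.09% of all genes. From 8 to 16 dpc with p21 Cox7a1 was then at -2.04 and not called, and no subunit was, beside 5.09% of all genes.

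**Figure D4:**
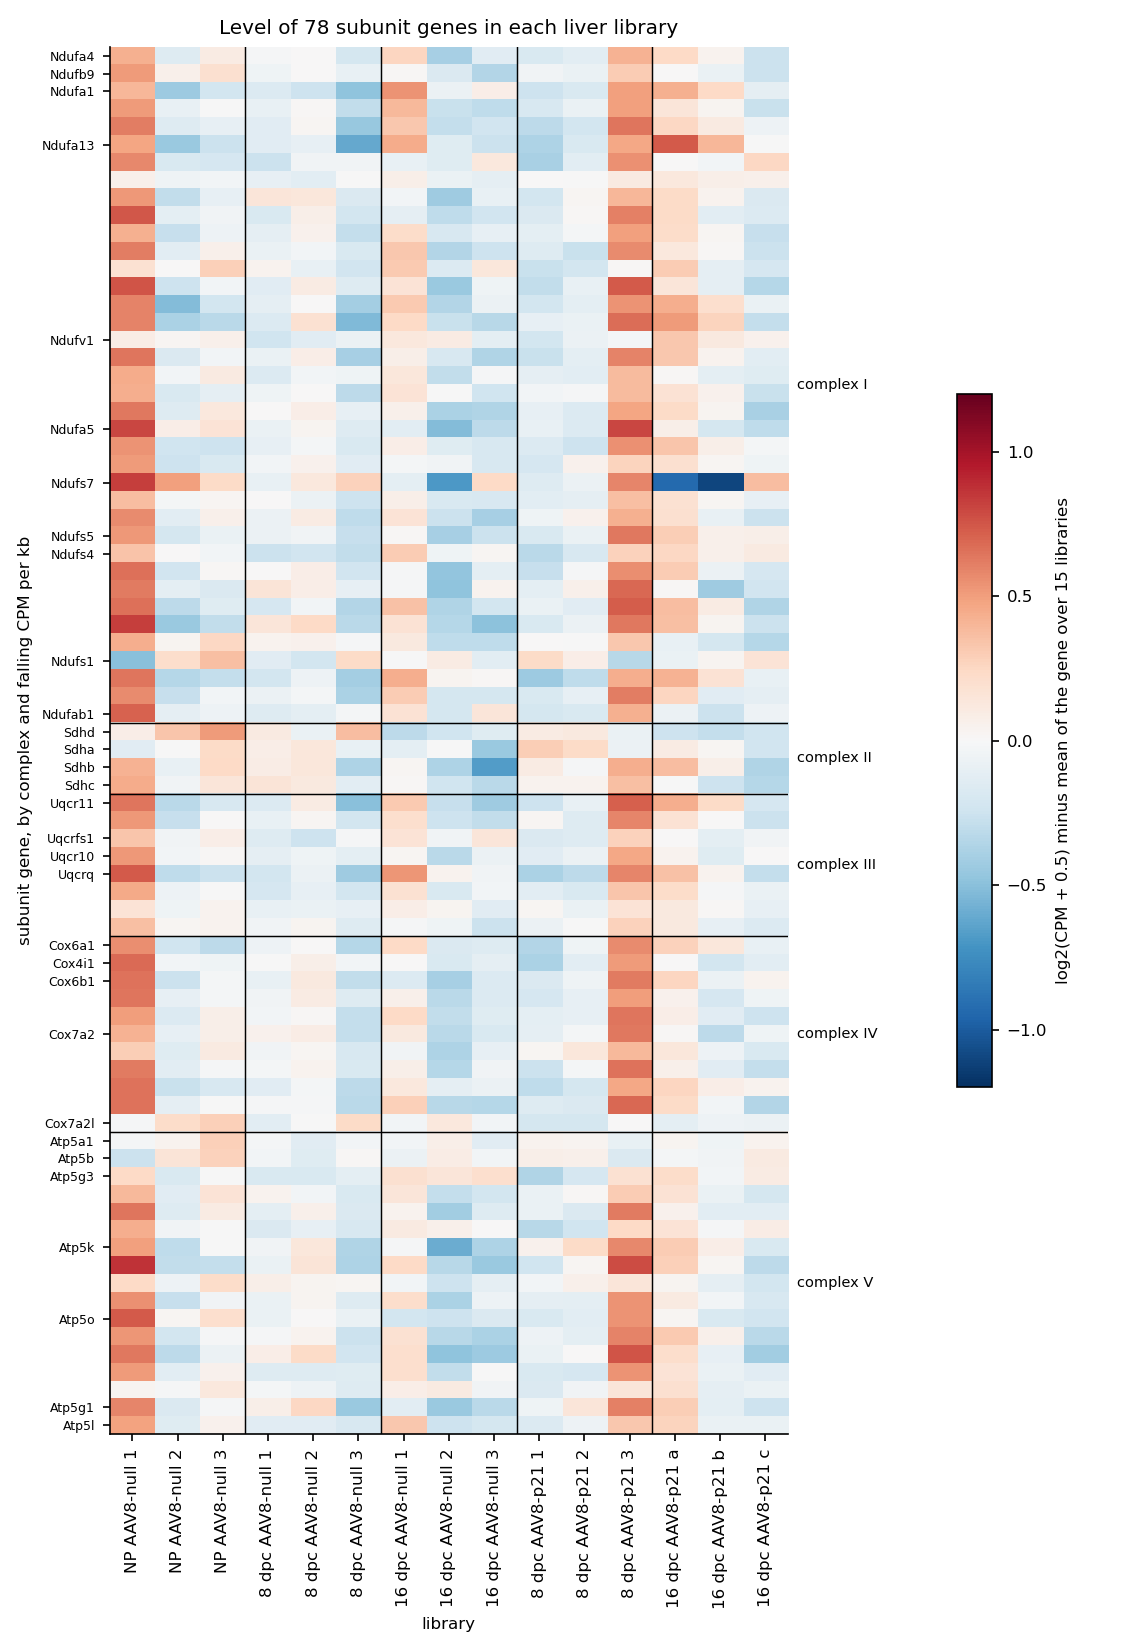
Level of the 78 subunit genes with at least 10 counts in every library (rows, by complex) in the 15 libraries (columns, by group), as log2(CPM + 0.5) minus the mean of the gene; red is higher, and only some of the rows are labelled. The first NP column and the third 8 dpc AAV8-p21 column are red for 73 and 72 genes, and Sdha, Atp5a1, Atp5b and Ndufs1 are below their mean in both.

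Gene length moved with the same libraries. The subunit genes are short, with a median exonic length of 1587 bases against 4473.5 over all genes tested. In NP AAV8-null 1 the median of all 232 tested genes under 1000 bases was 0.52 above the gene mean on the log2 scale and that of the 2207 genes over 8000 bases was -0.29. In 8 dpc AAV8-p21 3 these values were 0.47 and -0.24, while the other 13 libraries lay between -0.27 and 0.22 for the short genes. Cytosolic ribosomal protein genes were also high there (0.44 and 0.32), as were mitochondrial ribosomal protein genes (0.43 and 0.35), whereas TCA cycle genes were at 0.11 and 0.0035. Among genes of 1000 to 2000 bases the subunits were at 0.61 and 0.55 and all tested genes at 0.35 and 0.29, and among those of 4000 to 8000 bases the subunits were at 0.46 and 0.32 and all tested genes at -0.07 and -0.07. With the length trend of each library taken out, the median of the subunits was -0.15 from NP to 16 dpc and 0.09 for p21 at 8 dpc. The cause of the length trend was not tested.

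**Figure D5:**
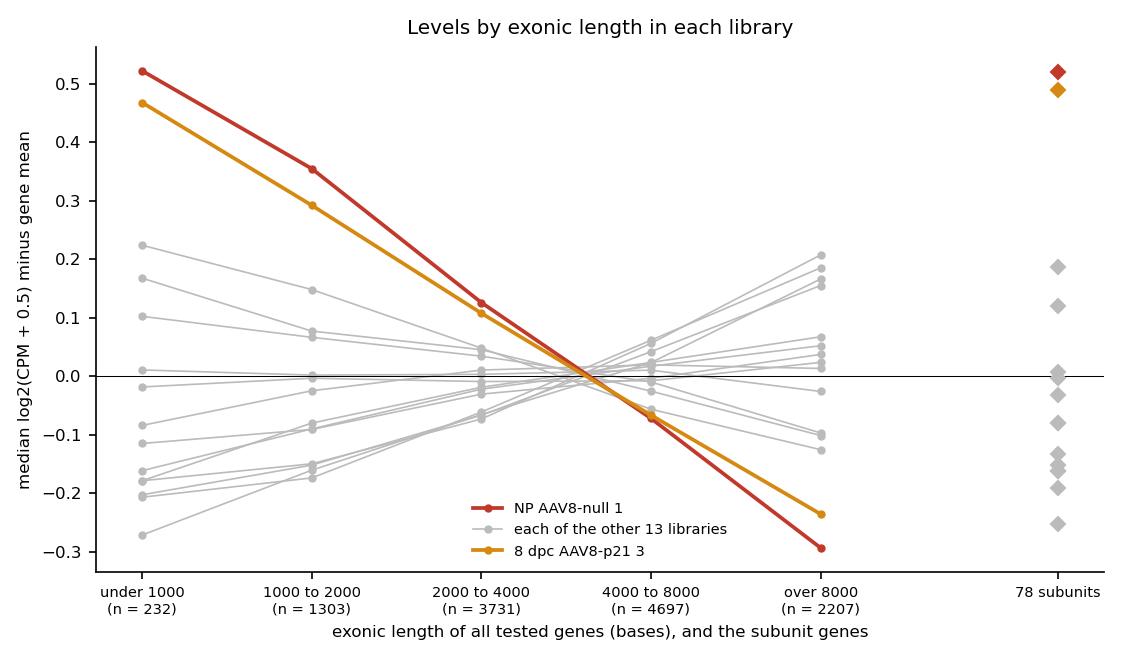
Median log2(CPM + 0.5) minus the gene mean of all tested genes in 5 classes of exonic length (lines, 1 per library) and of the 78 subunits (diamonds at the right). The libraries NP AAV8-null 1 and 8 dpc AAV8-p21 3 start at 0.52 and 0.47 for the shortest genes and end at -0.29 and -0.24 for the longest.

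A subunit whose level kept apart from the rest shows best after the library's subunit median is taken out. Over the 78 genes the median SD across libraries was 0.27 on the log2 scale before and 0.13 after this step. Ndufs1, the largest core subunit of complex I, with 8086 bases of exon, went the other way from the rest: it was at 78.1 and 87.3 CPM in the 2 libraries named above and at 94.8 to 142 CPM in the other 13. Atp5b was at 829 and 879 CPM there, its 2 lowest values, and reached 1205 CPM in NP AAV8-null 3. Sdhd, with 1231 bases of exon, was at 191 and 171 CPM there, the lowest value of its group in each case. The SD of these genes was larger after the step than before it, at 0.44 against 0.24 for Ndufs1, 0.34 against 0.14 for Atp5b and 0.37 against 0.26 for Sdhd.

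Genes that work with the subunits were read from fixed lists. Of the 13 subunits encoded in mitochondrial DNA, 10 were tested and none was called in any comparison (median log2 fold change -0.09 from NP to 16 dpc AAV8-null), with a summed level of 29527 to 46769 CPM; their median deviation from the gene mean was 0.09 in NP AAV8-null 1, between the -0.11 and 0.31 of the other NP libraries, and 0.13 in 8 dpc AAV8-p21 3, above the -0.39 and -0.25 of the other libraries of that group. Of 45 tested assembly factors, 1 passed in 1 comparison: Coa6, which helps insert copper into complex IV, rose from 13.97, 15.5 and 17.9 CPM in 8 dpc to 36.5, 26.1 and 29.4 CPM in 16 dpc AAV8-p21 (log2 fold change 0.96, SE 0.19, adjusted p = 0.0133), beside 3.32% of all genes called there. Of 15 tested regulators of mitochondrial biogenesis, 1 passed: Esrra, which encodes ERR alpha, fell from 23.9, 28.0 and 31.7 CPM in NP to 17.3, 17.2 and 13.2 CPM in 16 dpc AAV8-null (-0.81, SE 0.19, adjusted p = 0.0181), beside 6.52% of all genes called there. Ppargc1a, the coactivator PGC-1 alpha, spread from 4.19 to 25.9 CPM with overlap in all groups. None of 5 genes for electron carriers and cytochrome c1, or of 13 TCA cycle genes, was called in any comparison. Of 78 mitochondrial ribosomal protein genes, Mrps36 (-1.08, adjusted p = 0.0412) and Mrpl18 (-0.82, adjusted p = 0.0301) were lower from NP to 16 dpc AAV8-null, beside 2.82% of all genes called lower, and none of 77 cytosolic ribosomal protein genes was called. Markers of other cell types were read beside the subunits. From NP to 16 dpc AAV8-null, where 6.52% of all genes were called, 0 of 7 macrophage markers (median log2 fold change -0.18), 0 of 7 endothelial (-0.03), 0 of 5 bile duct (-0.61) and 0 of 5 tested lymphocyte markers (-0.48) were called. In the same comparison 1 of 7 stellate cell markers was lower (Lrat, median of the list 0.04), and 2 of 5 tested erythroid markers were higher (Alas2 and Hbb-bs, median 0.93). The erythroid, bile duct and lymphocyte medians were thus farther from 0 than the -0.23 of the subunits. From 8 to 16 dpc AAV8-null, beside 6.87% of all genes, 2 of 7 endothelial markers rose (Pecam1 and Clec4g, median 0.80), as did 1 of 7 stellate cell markers (Dcn, median 0.26), and the bile duct median was -0.80 with 0 of 5 called. From 8 to 16 dpc with p21, 1 erythroid marker (Alas2) rose, and in the other comparisons none of these markers was called. Their medians were not near 0 in all of those: from NP to 8 dpc AAV8-null, where the subunit median was -0.24, the endothelial median was -0.85 and the stellate cell median -0.49. For p21 at 8 dpc, where the subunit median was 0.20, the medians of the stellate cell, bile duct and erythroid markers were 0.79, 0.75 and 0.59. For p21 at 16 dpc, where the subunit median was 0.07, the medians of the same 3 lists were 0.30, 0.69 and -0.11. From 8 to 16 dpc with p21, where the subunit median was -0.12, the macrophage median was -0.44 and the endothelial median 0.41. Their part in the values of the subunits was not tested.

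Of the 81 subunit genes, 23 share exonic bases with another counted gene, in each case on the opposite strand, Cox4i1 with Emc8 and Atp5a1 with Haus1 among them. The sources do not say whether the strand was used in counting, so reads from such pairs cannot be assigned with certainty. Many small subunits also have processed copies elsewhere in the genome, and only uniquely mapped reads were counted, so their levels may be understated and comparisons between genes are less certain than those between groups.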

How the data were processed

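The authors deposited raw counts per gene, made with HTSeq 0.12.4 from uniquely mapped reads over protein-coding genes. Their processing notes name cutadapt 1.14 for trimming, and HISAT2 2.1.0 with the mm10 build for alignment. Libraries came from 200 ng of RNA with a stranded mRNA kit, and the strand setting of the counting is not given in the sources used here. The members and gene lists were chosen with earlier results of these data known.

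From the 21702 genes, 12172 passed edgeR's filterByExpr. They were fitted in 1 quasi-likelihood model of the 15 libraries in 5 groups (R 4.3.3, edgeR 4.0.16, TMM), with Benjamini-Hochberg adjustment over all of them and an adjusted p under 0.05 as the call. The SE was derived from the F statistic, and 95% intervals used the moderated t quantile (2.14). The model's common biological coefficient of variation was 0.277. DESeq2 1.42.0 and limma 3.58.1 were alternatives. Exonic lengths are unions of GENCODE exons (GRCm38). Ratios of summed counts have exact binomial intervals. No library was a copy of another. Scripts were tested on simulated data. Genes were named by a rule: the called or otherwise 3 smallest p values per comparison, the extremes and the most abundant member of each complex, all isoform families and Sdh genes, the called genes of each list, and the genes at the count threshold. Ndufs1, Ndufs7, Atp5b, Uqcrfs1 and Ppargc1a were partly chosen after their values were seen.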

Additional observations from a re-analysis of the deposited data

How the results depend on the processing

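The number of subunits called, 1 in each of 3 comparisons, depended on the processing. Scaled by library totals, 75 were called from NP to 16 dpc AAV8-null, 66 from 8 to 16 dpc AAV8-null and 56 from 8 to 16 dpc AAV8-p21, all lower, with medians of -0.91, -0.72 and -0.68. With at least 10 counts required in every library Cox7a1, which was admitted through libraries outside 16 dpc alone, leaves the table and 0 were called in each, beside 6.23%, 6.07% and 3.08% of all genes. From NP to 16 dpc AAV8-null, DESeq2 called 2 (beside 7.45% of all genes), limma voom 2 (13.2%), the fit without NP AAV8-null 1 and 8 dpc AAV8-p21 3 called 2 (7.09%), and removal of the length trend gave 3 (7.88%), each a smaller share of the 81 than of all genes. From 8 to 16 dpc AAV8-null, DESeq2, limma voom, the compared groups alone, the replicate block and the 12 libraries without 16 dpc AAV8-p21 gave 0 (beside 2.93% to 14% of all genes), and removal of the length trend 2 (8.41%). From 8 to 16 dpc AAV8-p21, limma voom gave 3 (14.9%), the compared groups alone 0 (3.31%) and the fit without the 2 libraries 0 (5.09%). For p21 at 8 dpc, DESeq2 and limma voom each gave 1, Cox6b2 (0.174% and 0.863%), a gene admitted through AAV8-null libraries alone. The cause was not tested. The fits without the 2 libraries, without the length trend and of 12 libraries were added after seeing the data.

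With single libraries left out, the calls ranged from 0 to 2 from NP to 16 dpc AAV8-null, from 0 to 1 from 8 to 16 dpc with either virus, and were 0 in the other comparisons. The medians ranged from -0.38 to -0.03 (NP to 16 dpc AAV8-null), -0.36 to -0.03 (NP to 8 dpc), -0.16 to 0.04 (8 to 16 dpc AAV8-null), -0.21 to 0.12 (8 to 16 dpc AAV8-p21), -0.02 to 0.18 (p21 at 16 dpc), -0.03 to 0.31 (p21 at 8 dpc) and -0.20 to 0.09 (interaction).

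Replicate numbers are shared by the groups, but same-numbered libraries did not all deviate together: between NP and 16 dpc AAV8-null their correlations were -0.05 to 0.47, so the numbers were not treated as pairs. With the replicate block, 1 subunit was called from NP to 16 dpc AAV8-null (Cox7a1, -3.44, beside 5.44% of all genes) and 0 from 8 to 16 dpc AAV8-null, with medians of -0.23 and -0.02. No block could be fitted for the 16 dpc AAV8-p21 group, whose column numbers differ from the labels.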

Other observations

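The data limit what can be said of the subunit genes. With 3 libraries per group, the median 95% interval reached 0.51 on the log2 scale to either side of an estimate, and 0.72 for the interaction. Cox7a1, Cox6b2 and Ndufa4l2 rest on 145 to 161 counts over all libraries. The length trend of NP AAV8-null 1 and 8 dpc AAV8-p21 3 has no label that accounts for it. RNA levels say nothing of protein or of respiration, and pregnancy was not separated from p21 in a non-pregnant group.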
